A study of Mus musculus with 20 samples.

Results

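The 33 genes described here encode the NRF2 transcription factor with its partners and antagonists, the enzymes that make and use glutathione, the thioredoxin system, the peroxidases and the superoxide dismutases. They were taken from a list of gene symbols, each read from its brightest probe set that carries a single symbol, and 31 of them had such a probe set among the 18193 genes measured; Prdx5 and Prdx6 were not analysed here. RNA came from mouse bone marrow cells positive for VE-cadherin, a junction protein of endothelial cells, from C57/Bl6 mice aged 8 to 10 weeks, and each sample was hybridised to 1 single-colour Affymetrix array. The 4 groups were non-irradiated mice and mice given 5 Gy to the whole body and sampled 6 hours, 24 hours or 14 days later. Each had 5 arrays, named biological replicates in the labels without saying if a replicate is 1 animal or several pooled, so the p-values measure only the spread between such samples. The strain and the VE-cadherin selection were shared by all groups.

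NRF2 (Nfe2l2) is held in the cytoplasm by KEAP1 and degraded. Electrophiles or peroxides modify KEAP1, and NRF2 then enters the nucleus, pairs with a small MAF protein and binds antioxidant response elements, from which BACH1 can displace it. Its targets supply glutathione and thioredoxin, the thiol donors with which peroxidases remove the hydrogen peroxide that superoxide dismutases produce. In bone marrow, genes of this system and of haem metabolism are also strongly expressed in maturing red blood cells.

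All levels are linear probe set signals in array units. Changes are log2 fold changes of signal + 1 with their standard error (SE), and each adjusted p is from limma with Benjamini-Hochberg adjustment over all 18193 genes. A gene was said to have risen or fallen where that p was under 0.05. Probe sets differ in brightness for the same amount of RNA, so levels are not compared between genes.

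All 20 pan-endothelial markers, Cdh5 (VE-cadherin) among them, were above background on every array, but erythroid, granulocyte and stromal markers were bright too, so the RNA was not of endothelial cells alone. The summed signal of the 14 measured erythroid markers (of 17 listed) ran from 54761 to 61329 on the non-irradiated arrays, from 6042 to 10258 at 6 hours, from 2425 to 3141 at 24 hours and from 65790 to 77207 on day 14. That of the endothelial markers ran from 22214 to 24146 without irradiation, from 62425 to 66810 at 6 hours, from 33842 to 35705 at 24 hours and from 11870 to 13415 on day 14. No group overlapped another in either sum. In bulk RNA, fewer cells of a type and less RNA per cell cannot be told apart. The 6-hour arrays were the least alike, with a median absolute log2 difference from their group of 0.620 to 0.647 against 0.300 to 0.403 in the other groups, and since the model pools the spread, p-values at 6 hours may be too small. The median array signal was 149 ± 9.21 at 6 hours, 135 ± 5.20 at 24 hours and 94.5 ± 8.39 on day 14, against 177 ± 10.1 without irradiation (SD, n = 5 each). The log2 signal of the 3′ minus the 5′ Gapdh control probe sets, a measure of RNA quality, was 1.58 ± 0.287 at 6 hours, 0.774 ± 0.056 at 24 hours and 0.894 ± 0.121 on day 14, against 1.33 ± 0.0404 without irradiation (SD, n = 5 each). The mean log2 signal of the hybridization controls was 13.08 ± 0.146, 12.42 ± 0.116 and 12.35 ± 0.16 at those times, against 12.99 ± 0.0627. The part of either measure in the changes between groups was not tested. The median change of all genes was -0.02 at 6 hours, -0.07 at 24 hours and -0.18 on day 14, and centring each array on its median moved these to 0.23, 0.31 and 0.72, so small changes depend on the scaling. Cdkn1a, the p53 target that arrests the cell cycle, rose by 2.66 ± 0.0962 at 6 hours (adjusted p = 2.74e-16).

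At 6 hours, 4 of the 31 measured genes had risen and 14 had fallen against the non-irradiated arrays, 58.1% in all, beside 27.4% of all genes (12.9% risen and 14.5% fallen). Since 30 of the 31 genes were brighter than the median gene, the share among those brighter genes, 43.7%, is the closer background. At 24 hours 8 had risen and 11 had fallen, 61.3% beside 29.5% of all genes (15.7% risen and 13.8% fallen) and 47.3% of the brighter ones. On day 14, 16 had risen and 3 had fallen, 61.3% beside 22.4% of all genes (9.47% risen and 13% fallen) and 30.2% of the brighter ones. At 6 hours 2 genes had all arrays above and 12 all arrays below the non-irradiated ones, beside 7.59% and 8.05% of all genes. At 24 hours these were 7 and 10 genes, beside 15.1% and 12.9%, and on day 14 they were 16 and 3, beside 11.4% and 11.6%. The split depended on the scaling: with arrays centred on their medians 7 rose and 11 fell at 6 hours, 14 rose and 7 fell at 24 hours, and 29 rose and 0 fell on day 14, where quantile normalization gave 17 and 1. The 4 rises at 6 hours became 2 without 6-hour replicate 5 or non-irradiated replicate 1 or 5. A test for any difference among the 4 groups passed for 26 of the 31 genes (83.9%, beside 55.1% of all genes); the others were Nfe2l2, Keap1, Bach1, Slc7a11 and Cat. The plot of changes by gene shows the genes in their functional groups.

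**Figure D1:**
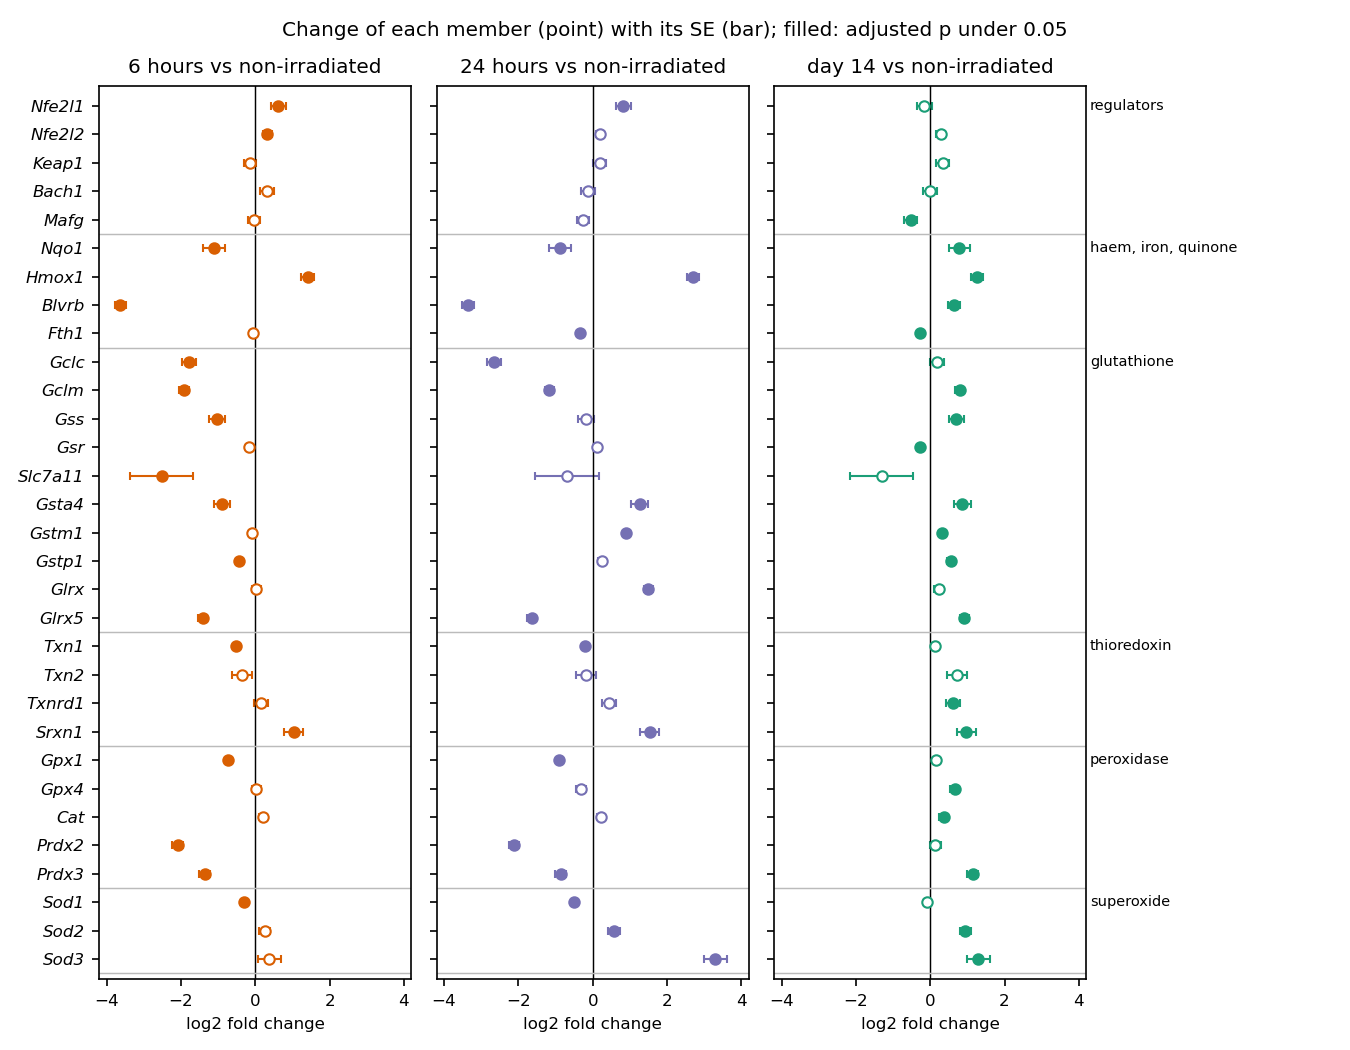
Log2 fold change (horizontal axis, log2 of signal + 1) of 31 genes at 6 hours, 24 hours and day 14 after 5 Gy against non-irradiated arrays (n = 5 per group), with bars of 1 SE; filled points have an adjusted p under 0.05. Blvrb, Prdx2, Gclc and Glrx5 lie far to the left at 6 and 24 hours, Hmox1 and Sod3 far to the right at 24 hours, and on day 14 most filled points lie to the right, although the direction of Fth1, Gsr and Mafg on that day turns when arrays are centred on their medians.

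Promoter sequences were read from RefSeq's promoter table (GRCm38.p6), which held 27 of the 33 genes, over the 250 bases before each start site and on both strands. The letters TGAGTCA, the core bound by AP-1 and by MAF-containing dimers, were in 3 of the 27 (Srxn1, Glrx and Gstp1; 11.1%, against 5.16% of all 27025 genes). The letters TGACNNNGC, the core of the antioxidant response element, were in 5 (Gclm, Txnrd1, Sod1, Mafg and Nfe2l2; 18.5%, against 11.5%). No match of one motif overlapped one of the other, and variants of either set of letters were not searched. Srxn1, Glrx, Gclm and Txnrd1 are printed because they are NRF2 targets or thiol enzymes that moved differently in the groups below. Blvrb and Prdx2, which fell together at 6 and 24 hours, held neither set of letters in this window. Capitals mark the matched letters, and all 6 stretches are the plus strand 5′ to 3′.
Srxn1, chr2:152105404-152105503, with matches starting 102 and 45 bases before the start: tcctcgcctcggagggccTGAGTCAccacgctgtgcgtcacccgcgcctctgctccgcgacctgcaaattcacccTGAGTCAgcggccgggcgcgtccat
Glrx, chr13:75839765-75839824, match on the minus strand 98 bases before the start: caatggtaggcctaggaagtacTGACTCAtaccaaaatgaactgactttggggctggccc
Gclm, chr3:122245397-122245456, match on the minus strand 134 bases before the start: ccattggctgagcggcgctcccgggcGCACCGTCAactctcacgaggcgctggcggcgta
Txnrd1, chr10:82859086-82859145, match on the minus strand 92 bases before the start: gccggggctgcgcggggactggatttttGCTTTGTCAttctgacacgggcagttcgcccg
Blvrb, chr7:27447858-27447917, no match: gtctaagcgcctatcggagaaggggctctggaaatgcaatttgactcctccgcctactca
Prdx2, chr8:84969502-84969561, no match: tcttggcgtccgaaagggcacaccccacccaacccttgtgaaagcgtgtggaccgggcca
A match is a run of letters and says nothing of binding in these cells.

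Among the 5 regulators the changes were small. Nfe2l1, a relative of NRF2 that controls proteasome and redox genes, rose by 0.62 ± 0.205 at 6 hours (adjusted p = 0.0243) and by 0.82 ± 0.205 at 24 hours (adjusted p = 0.003), and fell by 0.97 ± 0.205 on day 14 against 24 hours (adjusted p = 0.000424, and 0.0879 with arrays centred). Its signals were 620, 843, 636, 686 and 611 without irradiation, 1155, 658, 1043, 1086 and 1392 at 6 hours, 1190, 1132, 1488, 980 and 1219 at 24 hours, and 361, 598, 785, 688 and 701 on day 14. Every 24-hour array lay above every non-irradiated array, while 1 of the 6-hour arrays lay among them. The 6-hour call ended without any of 4 arrays (6-hour replicate 5 or non-irradiated replicates 1, 3 and 5; adjusted p 0.05 to 0.0697, changes of 0.51 to 0.60).

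Nfe2l2, NRF2 itself, had signals of 2306, 2201, 2660, 2407 and 2331 without irradiation, 3382, 3379, 2584, 2306 and 3411 at 6 hours, 3249, 2705, 2746, 2517 and 2433 at 24 hours, and 2790, 2860, 2700, 2941 and 3161 on day 14. The change at 6 hours was 0.32 ± 0.115 (adjusted p = 0.036), with 3 of the 5 arrays above all non-irradiated arrays and 2 within their range. That call ended without any of 7 arrays (6-hour replicates 1, 2 and 5 or non-irradiated replicates 1, 2, 4 and 5; adjusted p 0.0553 to 0.0888) and the changes at 24 hours (0.19) and on day 14 (0.28) did not pass. A second, dimmer Nfe2l2 probe set gave -0.32, -1.58 and -2.09 at the 3 times, so that the mean of both turned the direction at 24 hours and on day 14 (-0.69 and -0.91). NRF2 is regulated mainly through the stability of its protein, which the arrays do not measure.

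Keap1 ran from 907 to 1226 without irradiation and from 715 to 1561 over the irradiated groups, and Bach1 from 870 to 1675 and from 899 to 2081; neither passed in any of the 5 comparisons. Mafg, the small MAF partner, fell by 0.53 ± 0.168 on day 14 (adjusted p = 0.0256), where its 5 signals of 563 to 711 all lay below the 727 to 1030 without irradiation, but the direction turned with arrays centred on their medians (0.37). This call ended without any of 5 arrays (day 14 replicates 4 and 5 or non-irradiated replicates 1, 2 and 3; adjusted p 0.0568 to 0.0639, changes of -0.50 to -0.48).

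At 6 and 24 hours Hmox1 rose and Blvrb fell, and both rose on day 14. Hmox1, heme oxygenase 1, which splits haem into biliverdin, iron and carbon monoxide and is repressed by BACH1, rose at all 3 times. Its signals were 429, 360, 390, 236 and 277 without irradiation, 678, 1021, 874, 769 and 1130 at 6 hours, 2012, 2380, 2264, 1997 and 2100 at 24 hours, and 779, 835, 794, 785 and 763 on day 14. No irradiated array was as low as any non-irradiated one, and the 24-hour arrays were above all others. The changes were 1.41 ± 0.171 at 6 hours (2.66-fold, adjusted p = 4.12e-07), 2.70 ± 0.171 at 24 hours (6.48-fold, adjusted p = 3.77e-12) and 1.26 ± 0.171 on day 14 (2.39-fold, adjusted p = 7.46e-06). Against 6 hours the 24-hour arrays were 2.44-fold higher (adjusted p = 2.95e-06). Against 24 hours the day 14 arrays were 2.71-fold lower (adjusted p = 1.76e-07).

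Macrophages also express heme oxygenase 1. The summed signal of 15 measured monocyte and macrophage markers (of 16 listed) ran from 9556 to 11090 at 6 hours, from 12988 to 14732 at 24 hours and from 10276 to 12686 on day 14, against 14172 to 16507 without irradiation. At 24 hours 5 of these had risen and 2 had fallen, with a median change of 0.20; 1 of the 15 was at background on all arrays of that group. Their part in the change of Hmox1 was not tested.

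Blvrb, biliverdin reductase B, a flavin reductase of red cells, showed the deepest fall of the 31 genes. It had signals of 4680, 3798, 4398, 5058 and 4386 without irradiation, 511, 316, 432, 287 and 297 at 6 hours, 317, 492, 432, 477 and 465 at 24 hours, and 7848, 6861, 7010, 6914 and 6225 on day 14. The 6- and 24-hour arrays overlapped each other, lay far below the non-irradiated arrays and were all exceeded by every day 14 array. The signal was 12.4-fold lower at 6 hours (-3.63 ± 0.156, adjusted p = 6.68e-15), 10.3-fold lower at 24 hours (-3.36 ± 0.156, adjusted p = 1.19e-14) and 1.56-fold higher on day 14 (adjusted p = 0.00412). Day 14 exceeded 24 hours 16.1-fold (4.01 ± 0.156, adjusted p = 4.56e-16).

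Nqo1, the quinone reductase often used as a readout of NRF2, did not follow Hmox1. Its signals were 316, 302, 361, 374 and 321 without irradiation, 188, 113, 228, 69.7 and 255 at 6 hours, 207, 222, 128, 187 and 175 at 24 hours, and 629, 618, 514, 594 and 536 on day 14. The early groups lay below all non-irradiated arrays and day 14 lay above them. Nqo1 fell by 1.11 ± 0.287 at 6 hours (adjusted p = 0.00427) and by 0.88 ± 0.287 at 24 hours (adjusted p = 0.0211), and was 0.79 ± 0.287 higher on day 14 (adjusted p = 0.0498). The 6-hour call ended when only both groups compared were fitted (adjusted p = 0.0509). The 24-hour call ended without 24-hour replicate 3 (-0.76, adjusted p = 0.0656), under quantile normalization (adjusted p = 0.115) and with arrays centred (adjusted p = 0.224). The day 14 call ended without any of 14 arrays (0.75 to 0.83, adjusted p 0.0551 to 0.0975): each day 14 and each non-irradiated array, and 24-hour replicates 1, 2, 4 and 5. Day 14 was 3.18-fold above 24 hours (adjusted p = 3.9e-05).

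Fth1, the ferritin heavy chain that stores iron, was 16875 to 18837 at 24 hours and 16770 to 21127 on day 14, against 21796 to 23688 without irradiation. Its changes of -0.35 at 24 hours and -0.28 on day 14 passed the test, but both turned under quantile normalization (0.09 and 0.15) and with arrays centred (0.03 and 0.62), and a second Fth1 probe set rose (0.30 and 0.63).

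**Figure D2:**
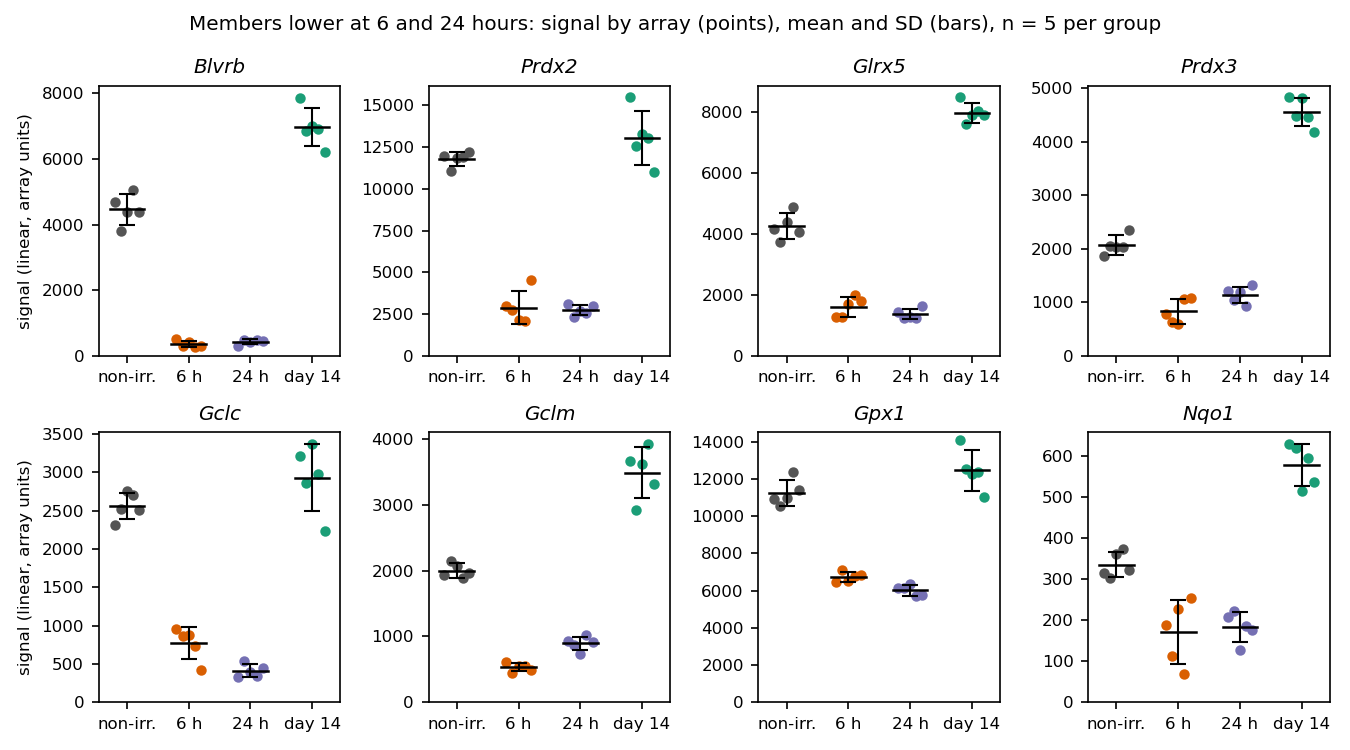
Signal (vertical axis, linear array units, from 0) of 8 genes that fell at 6 and 24 hours, for each array (points) with the mean and SD of 5 arrays (bars), from non-irradiated to 6 hours, 24 hours and day 14 after 5 Gy. In all 8 genes the points at 6 and 24 hours lie below every non-irradiated point, and the day 14 points overlap or exceed those without irradiation; for Blvrb the 6-hour points are at 287 to 511, against 3798 to 5058 without irradiation.

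Gclc, Gclm and Gss, the genes of glutathione synthesis, fell at 6 hours. Of the 10 glutathione genes 0 rose and 7 fell at 6 hours, 3 rose and 3 fell at 24 hours, and 6 rose and 1 fell on day 14; the fall on day 14 was Gsr, which turned with arrays centred. Of all genes, 12.9% rose and 14.5% fell at 6 hours, 15.7% and 13.8% at 24 hours, and 9.47% and 13% on day 14; among genes brighter than the median, 43.7%, 47.3% and 30.2% changed in either direction. Gclc and Gclm encode the catalytic and modifier subunits of glutamate-cysteine ligase, the rate-limiting step. Gclc had signals of 2316, 2521, 2752, 2705 and 2515 without irradiation, 954, 867, 878, 737 and 422 at 6 hours, 334, 535, 400, 345 and 453 at 24 hours, and 3215, 2858, 3370, 2974 and 2233 on day 14. It was 3.44-fold lower at 6 hours (-1.78 ± 0.185, adjusted p = 3.32e-08) and 6.27-fold lower at 24 hours (-2.65 ± 0.185, adjusted p = 1.99e-11), and the day 14 arrays overlapped the non-irradiated ones (0.18 ± 0.185, adjusted p = 0.508).

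Gclm had signals of 1926, 2151, 2072, 1887 and 1964 without irradiation, 618, 452, 547, 549 and 495 at 6 hours, 930, 868, 732, 1018 and 921 at 24 hours, and 3663, 2914, 3614, 3921 and 3312 on day 14. No group overlapped another. The 2 subunits differed in time course: from 6 to 24 hours Gclc fell further (-0.87 ± 0.185, adjusted p = 0.00101) while Gclm was higher (0.75 ± 0.126, adjusted p = 7.3e-05), although the second Gclm probe set did not share this difference and the mean of both gave 0.21 (adjusted p = 0.363). Gclm was 3.77-fold lower at 6 hours (adjusted p = 9.31e-12), 2.25-fold lower at 24 hours (adjusted p = 5.01e-08) and 1.74-fold higher on day 14 (adjusted p = 5.66e-05).

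Gss, glutathione synthetase, which adds the last amino acid, was 138 to 199 at 6 hours, 272 to 360 at 24 hours and 515 to 696 on day 14, against 285 to 495 without irradiation. It fell at 6 hours (-1.03, adjusted p = 0.000382) and rose on day 14 (0.70, adjusted p = 0.0168), a call that ended without day 14 replicate 3 (0.64, adjusted p = 0.0516). Gsr, which reduces oxidised glutathione, moved little on its brightest probe set: it was 5918 to 7885 at 6 hours, 7915 to 8621 at 24 hours and 5869 to 6978 on day 14, against 7425 to 8194 without irradiation. Its fall of 0.29 on day 14 (adjusted p = 0.00647) turned to 0.61 with arrays centred. A second, dimmer Gsr probe set moved more, by -0.53 at 6 hours, 0.30 at 24 hours and -0.60 on day 14. Slc7a11, the cystine importer that supplies cysteine for glutathione, was near background: it had 142, 84.0, 56.0, 50.1 and 31.6 without irradiation, and 1.15, 47.6, 1.45, 92.4 and 6.78 at 6 hours, where 3 of 5 arrays were at or under background. The 6-hour change of -2.52 ± 0.853 (adjusted p = 0.0277) ended without any of 5 arrays (6-hour replicates 1, 3 and 5 or non-irradiated replicates 1 and 2; -2.42 to -1.92, adjusted p 0.0532 to 0.0954).

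The glutathione transferases, which couple glutathione to electrophiles, were higher at 24 hours or on day 14. Gsta4, which clears the lipid peroxidation product 4-hydroxynonenal, had signals of 369, 500, 576, 411 and 336 without irradiation, 371, 220, 239, 125 and 270 at 6 hours, 934, 1199, 956, 1036 and 1068 at 24 hours, and 661, 767, 791, 859 and 856 on day 14. It fell by 0.89 ± 0.225 at 6 hours (adjusted p = 0.00347), with 6-hour replicate 1 inside the range without irradiation, and rose by 1.26 ± 0.225 at 24 hours (2.40-fold, adjusted p = 7.97e-05) and by 0.86 ± 0.225 on day 14 (adjusted p = 0.00727). The 6-hour call ended when only both groups compared were fitted (adjusted p = 0.0694). The 24-hour arrays were 4.46-fold above the 6-hour arrays (adjusted p = 6.95e-08). Gstm1 was 5130 to 6321 at 24 hours, against 2632 to 3155 without irradiation (0.90 ± 0.0958, adjusted p = 3.84e-08). Its day 14 rise of 0.32 (adjusted p = 0.0177) ended without day 14 replicate 1 or non-irradiated replicate 2 (both 0.28, adjusted p 0.0528 and 0.0559) and under quantile normalization (0.10) or with its probe sets averaged (0.09). Its probe set is marked as open to cross-hybridization, and closely related Gstm genes may share its signal. Those read for Gss, Gpx4 and Sod1 carry the same kind of mark. Gstp1 fell by 0.43 at 6 hours (adjusted p = 0.00193, and 0.382 with arrays centred) and rose by 0.55 on day 14 (adjusted p = 0.000289).

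The 2 glutaredoxins, which use glutathione to reduce protein thiols or carry iron-sulfur clusters, moved in opposite directions at 24 hours. Glrx, the cytosolic glutaredoxin, had signals of 1252, 1377, 1026, 1315 and 1356 without irradiation, 1486, 1125, 1497, 1292 and 1059 at 6 hours, 3629, 3315, 3893, 3352 and 3646 at 24 hours, and 1482, 1448, 1757, 1366 and 1375 on day 14. The 24-hour arrays stood alone above all others. The changes were 0.02 at 6 hours (adjusted p = 0.921), 1.50 ± 0.124 at 24 hours (2.83-fold, adjusted p = 4.95e-10) and 0.23 on day 14 (adjusted p = 0.18), and a second Glrx probe set gave 1.91 at 24 hours.

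Glrx5, the mitochondrial glutaredoxin that passes iron-sulfur clusters on and that red cell precursors need for haem synthesis, had signals of 4178, 3746, 4410, 4902 and 4071 without irradiation, 1266, 1281, 1696, 2012 and 1818 at 6 hours, 1448, 1258, 1295, 1245 and 1626 at 24 hours, and 8502, 7604, 7912, 8032 and 7898 on day 14. The early groups lay below and day 14 above every non-irradiated array. Glrx5 was 2.67-fold lower at 6 hours (adjusted p = 1.12e-09), 3.10-fold lower at 24 hours (adjusted p = 6.19e-11) and 1.88-fold higher on day 14 (adjusted p = 5.25e-06), and day 14 exceeded 24 hours 5.84-fold (adjusted p = 1.29e-14).

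Of the peroxidases, 0 rose and 3 fell at both 6 and 24 hours (Prdx2, Prdx3 and Gpx1), and 3 rose and 0 fell on day 14 (Prdx3, Gpx4 and Cat), of 5 measured. In the same comparisons 14.5% and 13.8% of all genes fell at 6 and 24 hours and 9.47% rose on day 14, and 43.7%, 47.3% and 30.2% of the brighter genes changed in either direction. Prdx2, the cytosolic peroxiredoxin that is among the most abundant proteins of red cells, had signals of 11962, 11086, 11863, 11887 and 12203 without irradiation, 2958, 2744, 2129, 2073 and 4538 at 6 hours, 3095, 2319, 2697, 2589 and 2984 at 24 hours, and 15474, 12535, 13263, 13034 and 10996 on day 14. The early arrays were all far below the non-irradiated ones, and day 14 overlapped them. It was 4.26-fold lower at 6 hours (-2.09 ± 0.144, adjusted p = 2.12e-11) and 4.33-fold lower at 24 hours (-2.11 ± 0.144, adjusted p = 1.25e-11). A second Prdx2 probe set gave smaller falls of -0.55 and -1.50.

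Prdx3, the mitochondrial peroxiredoxin, had signals of 1864, 2050, 2046, 2041 and 2362 without irradiation, 787, 643, 588, 1057 and 1092 at 6 hours, 1219, 1046, 1204, 940 and 1318 at 24 hours, and 4834, 4490, 4819, 4472 and 4191 on day 14. It was 2.56-fold lower at 6 hours (adjusted p = 1.01e-07), 1.82-fold lower at 24 hours (adjusted p = 6.1e-05) and 2.20-fold higher on day 14 (adjusted p = 4.86e-06), where all 5 arrays exceeded every non-irradiated array. Gpx1, the main cytosolic glutathione peroxidase, was 6464 to 7090 at 6 hours, 5696 to 6336 at 24 hours and 11029 to 14081 on day 14, against 10535 to 12392 without irradiation; it fell by 0.74 ± 0.0671 (adjusted p = 3.56e-09) and by 0.90 ± 0.0671 (adjusted p = 6.78e-11) at the early times.

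Gpx4, which reduces lipid peroxides and thereby guards against ferroptosis, did not pass at the early times (0.03 at 6 hours and -0.31 at 24 hours) and rose by 0.66 ± 0.129 on day 14 (adjusted p = 0.000627). Its day 14 signals were 3899, 4251, 4208, 3782 and 2746, against 2045, 2382, 2566, 2802 and 2110 without irradiation, with day 14 replicate 5 inside the non-irradiated range. A second Gpx4 probe set gave -0.02 at 6 hours, 0.11 at 24 hours and 0.83 on day 14. Cat, the peroxisomal catalase, rose by 0.37 ± 0.119 on day 14 (adjusted p = 0.0284), but this call ended without any of 5 arrays (day 14 replicates 3 and 5 or non-irradiated replicates 1, 2 and 4; 0.32 to 0.36, adjusted p 0.0545 to 0.0834) and under quantile normalization (0.15).

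Blvrb, Glrx5, Prdx2, Prdx3, Gpx1, Gclc and Gclm fell in the groups in which the erythroid markers were lowest. These 7 genes kept both early calls in all 30 alternatives tried. Nqo1, Sod1 and Txn1 also fell at 6 and 24 hours, but their calls ended or turned in some alternatives. All 14 erythroid markers had fallen at 6 hours, with a median change of -3.51, and at 24 hours, with a median of -5.48. On day 14, 3 had risen and 0 had fallen, with a median of 0.75. At 24 hours Rhag and Sptb were at background on all 5 arrays. None of the 7 genes was at background on any array, and from 6 to 24 hours 10 of the 14 markers fell further. Over the same interval Gclc fell (-0.87), Gclm (0.75) and Prdx3 (0.49) were higher, and Blvrb (0.27), Prdx2 (-0.02), Glrx5 (-0.21) and Gpx1 (-0.16) did not pass the test. These values depend on the probe set: second probe sets gave -0.72 for Gclc, -0.33 for Gclm and -0.94 for Prdx2. With probe sets averaged, Prdx2 fell (-0.48, adjusted p = 0.00488) and Gclm did not pass (0.21, adjusted p = 0.363). The part of erythroid RNA in the changes of the 7 genes was not tested. The plot of mean levels by array shows both side by side.

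**Figure D3:**
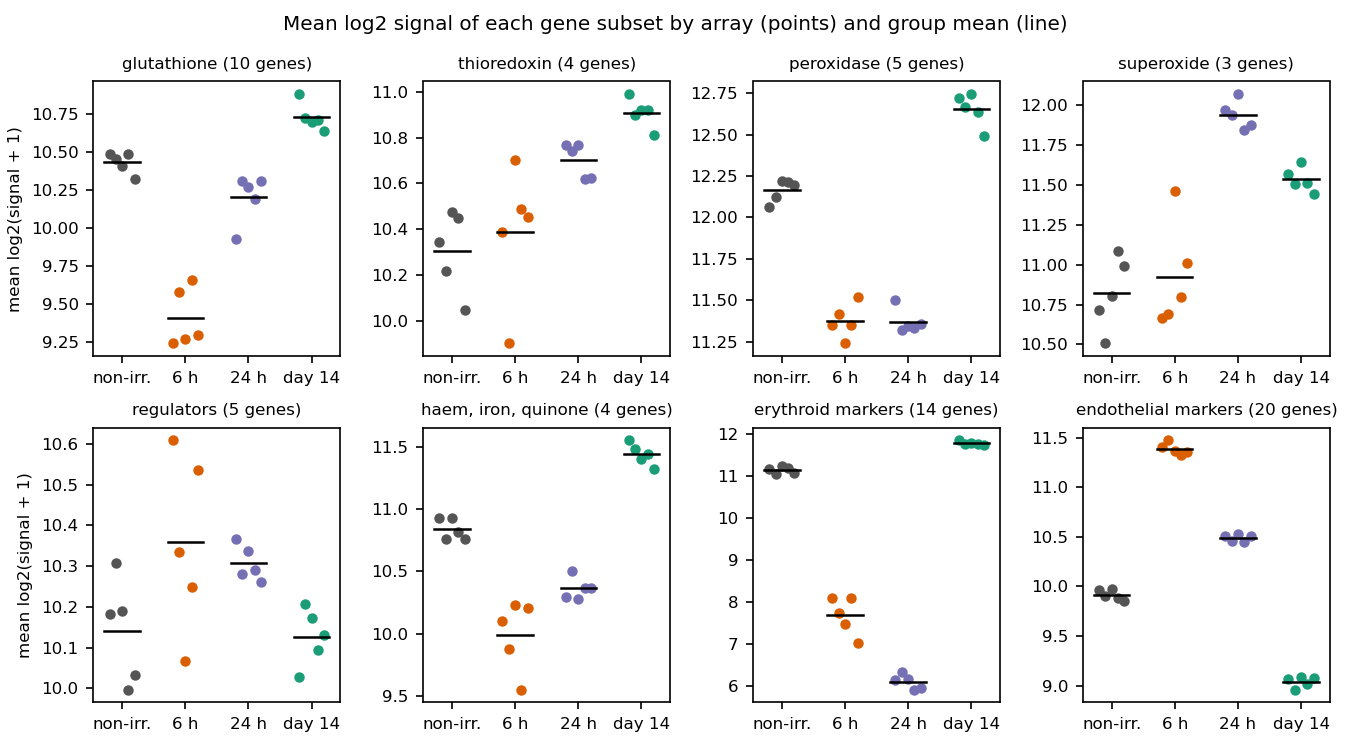
Mean log2(signal + 1) (vertical axis, log scale, not from 0) of the genes of each functional group and of the erythroid and endothelial marker lists, for each array (points) with the group mean (line), from non-irradiated to 6 hours, 24 hours and day 14. The means in the peroxidase, glutathione, haem-iron-quinone and erythroid panels are all lower at 6 and 24 hours than without irradiation, and highest on day 14. Single genes differed: at 24 hours 3 of the 10 glutathione genes had risen and 3 had fallen. Of the 4 haem, iron and quinone genes, 1 (Hmox1) had risen and 3 had fallen at that time. From 6 to 24 hours the erythroid mean falls from 7.681 to 6.105, while the peroxidase mean is 11.38 and 11.37. The glutathione panel is lowest at 6 hours. The superoxide panel is highest at 24 hours, as is Sod3, while the brightest Sod1 probe set is lowest at that time and Sod2 is highest on day 14. Dimmer Sod1 probe sets, not drawn, were lowest at other times. The endothelial panel is highest at 6 hours and lowest on day 14.

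In the thioredoxin group, only Srxn1 passed at all 3 times. Srxn1, sulfiredoxin, which restores overoxidised peroxiredoxins, had signals of 262, 175, 271, 176 and 112 without irradiation, 459, 278, 366, 336 and 577 at 6 hours, 606, 506, 545, 429 and 714 at 24 hours, and 350, 315, 416, 439 and 362 on day 14. Every irradiated array lay above every non-irradiated array. The changes were 1.04 ± 0.253 at 6 hours (2.05-fold, adjusted p = 0.00261), 1.53 ± 0.253 at 24 hours (2.90-fold, adjusted p = 2.98e-05) and 0.97 ± 0.253 on day 14 (1.96-fold, adjusted p = 0.00712). With the mean of the 4 Srxn1 probe sets, of which 1 gave -0.59 at 6 hours, the 24-hour call alone remained (0.48 and 0.70 at 6 hours and on day 14, adjusted p 0.236 and 0.0723).

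Txn1, the cytosolic thioredoxin, was 6771 to 8575 at 6 hours, against 10393 to 12079 without irradiation (-0.51 ± 0.0681, adjusted p = 1.95e-06, a call that ended with arrays centred, -0.26 and adjusted p = 0.0927, and with its probe sets averaged, -0.15 and adjusted p = 0.74). Its 24-hour change of -0.20 (adjusted p = 0.0287) turned under quantile normalization (0.01) and with arrays centred (0.18), and ended without any of 6 arrays (24-hour replicates 1, 4 and 5 or non-irradiated replicates 3, 4 and 5; -0.20 to -0.17, adjusted p 0.0501 to 0.0795). Txnrd1, the reductase that recharges thioredoxin, was 1513 to 2087 on day 14, against 778 to 1495 without irradiation (0.61 ± 0.185, adjusted p = 0.0197). That call ended without day 14 replicate 2 or non-irradiated replicates 1 or 2 (0.48 to 0.57, adjusted p 0.0511 to 0.0696) and under quantile normalization (adjusted p = 0.0886). The 24-hour Txnrd1 change of 0.44 (adjusted p = 0.0793) passed in 6 of 30 alternatives, among them with probe sets averaged. Other Txnrd1 probe sets gave 0.58 and 0.20 at 6 hours, 0.92 and 0.58 at 24 hours, and 0.73 and 0.31 on day 14. Txn2, the mitochondrial thioredoxin, did not pass against the non-irradiated arrays on its brightest probe set. Still, all 5 day 14 signals of 1558 to 2118 lay above the non-irradiated 700 to 1267 (0.71 ± 0.27, adjusted p = 0.0589). This change passed without 6-hour replicate 2 or 3 (adjusted p 0.0285 and 0.00983). The 6-hour change of -0.36 passed without 6-hour replicate 3 (-0.69, adjusted p = 0.0141). Other Txn2 probe sets gave -0.44 and -1.06 at 6 hours, -0.16 and 0.14 at 24 hours, and 0.83 and 1.23 on day 14. With probe sets averaged, Txn2 passed at 6 hours and on day 14.

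The 3 superoxide dismutases differed from each other. Sod3, the extracellular form that binds to vessel walls, had signals of 106, 131, 151, 166 and 214 without irradiation, 142, 143, 561, 108 and 228 at 6 hours, 1556, 1611, 1581, 1283 and 1364 at 24 hours, and 347, 337, 409, 379 and 372 on day 14. The 24-hour arrays were above all others, the day 14 arrays were above the non-irradiated ones, and 1 of the 6-hour arrays (replicate 3) stood above the rest of its group. The changes were 0.38 ± 0.309 at 6 hours (adjusted p = 0.415), 3.29 ± 0.309 at 24 hours (9.80-fold, adjusted p = 4.72e-09) and 1.29 ± 0.309 on day 14 (2.45-fold, adjusted p = 0.00375). Day 14 was 4.00-fold below 24 hours (adjusted p = 9.37e-06), and a second Sod3 probe set gave 3.43 at 24 hours.

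Beside the Sod3 change, the summed signal of 10 measured stromal and osteoblast markers (of 12 listed) was 79239 to 95509 at 24 hours, against 79653 to 85466 without irradiation. Of them, 6 had risen and 2 had fallen (15.7% and 13.8% of all genes), with a median change of 0.56. At 6 hours the sum was 93961 to 113720, with 7 risen and 0 fallen (12.9% and 14.5% of all genes). On day 14 it was 62379 to 73822, with 1 risen and 3 fallen (9.47% and 13% of all genes). None of the 10 markers was at background on all arrays of any group, and their part in the change of Sod3 was not tested.

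Sod2, the mitochondrial manganese enzyme, was 3072 to 3871 at 24 hours and 3846 to 4856 on day 14, against 1455 to 3343 without irradiation; it rose by 0.58 ± 0.16 (adjusted p = 0.00644) and by 0.95 ± 0.16 (adjusted p = 0.000121). Of its 3 other probe sets, 2 gave 0.51 and 0.44 at 24 hours and 0.68 and 0.62 on day 14, and the dimmest gave 0.03 and -0.36; the mean of all 4 was 0.39 (adjusted p = 0.011) and 0.47 (adjusted p = 0.00352). Sod1, the cytosolic copper-zinc enzyme, was 13690 to 15386 at 6 hours and 11510 to 13039 at 24 hours, against 16040 to 18506 without irradiation. It fell by 0.31 ± 0.0578 (adjusted p = 0.000143) and by 0.51 ± 0.0578 (adjusted p = 1.12e-07), and both calls ended with arrays centred (-0.06 and -0.13, adjusted p 0.696 and 0.376). On day 14 its change was -0.10. Dimmer Sod1 probe sets gave -0.46, -0.49, -0.31 and -0.16 at 6 hours and -0.42, -0.59, -0.66 and -0.47 at 24 hours. On day 14 they gave 0.05, -1.14, -1.54 and -1.10.

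**Figure D4:**
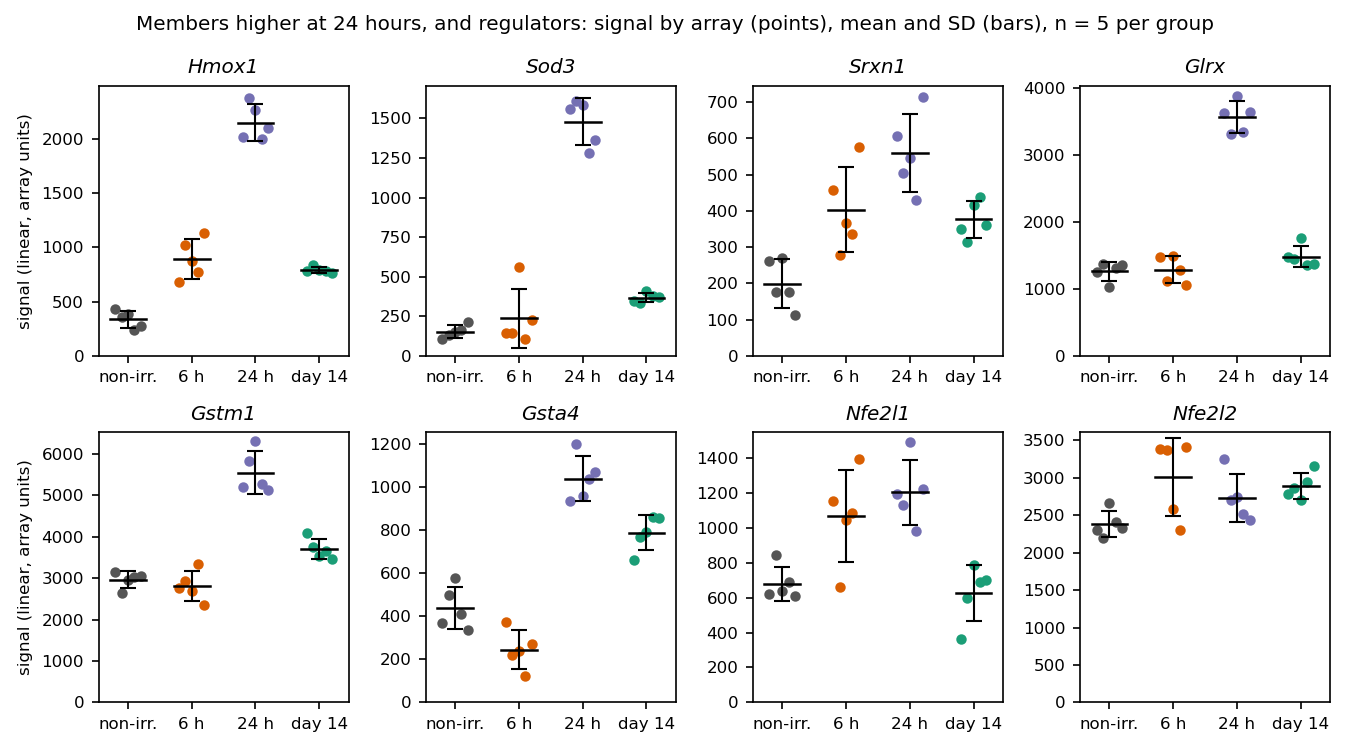
Signal (vertical axis, linear array units, from 0) of 6 genes that were higher at 24 hours and of Nfe2l1 and Nfe2l2, for each array (points) with the mean and SD of 5 arrays (bars), from non-irradiated to 6 hours, 24 hours and day 14 after 5 Gy. Hmox1, Sod3 and Glrx reach 1997 to 2380, 1283 to 1611 and 3315 to 3893 at 24 hours, against 236 to 429, 106 to 214 and 1026 to 1377 without irradiation. The brightest Nfe2l2 probe set stays between 2201 and 3411 in all 4 groups. A dimmer one, not drawn, had log2 changes of -1.58 at 24 hours and -2.09 on day 14.

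By functional group, the median change at 6 hours was -0.96 over the 10 glutathione genes, -0.10 over the 4 thioredoxin genes, -0.74 over the 5 peroxidases and 0.25 over the 3 superoxide dismutases, beside -0.18 over all 31 genes and -0.02 over all genes of the arrays. At 24 hours these medians were -0.03, 0.13, -0.86 and 0.58, beside -0.18 over the 31 and -0.07 over all genes. On day 14 they were 0.44, 0.66, 0.37 and 0.95, beside 0.37 over the 31 and -0.18 over all genes. The 5 regulators had medians of 0.32, 0.19 and -0.01, and the 4 haem, iron and quinone genes of -0.59, -0.62 and 0.72. The mean log2 signal of the glutathione genes ran from 9.24 to 9.66 at 6 hours, 9.93 to 10.31 at 24 hours and 10.64 to 10.88 on day 14, against 10.32 to 10.49 without irradiation, so that no group overlapped another. That of the peroxidases was 11.24 to 11.52 at 6 hours, 11.32 to 11.50 at 24 hours and 12.49 to 12.75 on day 14, against 12.07 to 12.22 without irradiation, so that 6 and 24 hours overlapped each other and no other group. That of the superoxide dismutases was 10.67 to 11.46 at 6 hours, 11.84 to 12.07 at 24 hours and 11.45 to 11.64 on day 14, against 10.51 to 11.09 without irradiation. Of the superoxide dismutases only Sod3 was highest at 24 hours. On its brightest probe set alone, Sod1 was lowest then, with a mean signal of 12405 against 17685 without irradiation. Sod2 was highest on day 14. Differences between these groups of genes were not tested, since the genes were chosen with results of these arrays known.

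Directly between times, 11 of the 31 genes were higher and 3 lower at 24 hours than at 6 hours (45.2%, beside 23.8% of all genes, of which 13.7% higher and 10.1% lower, and 36.3% of the brighter genes). In 10 genes every 24-hour array was above and in 3 below every 6-hour array, beside 7.99% and 6.61% of all genes. The glutathione genes made up 7 of the 11, and Sod3 (2.91), Gsta4 (2.16), Glrx (1.48) and Hmox1 (1.29) led. On day 14 against 24 hours, 14 were higher and 6 lower (64.5%, beside 36.9% of all genes, of which 15.2% higher and 21.7% lower, and 57.1% of the brighter ones), or 21 and 3 with arrays centred. In 13 genes every day 14 array was above and in 7 below every 24-hour array, beside 15.7% and 20.6% of all genes. Blvrb (4.01), Gclc (2.83), Glrx5 (2.55), Prdx2 (2.25) and Prdx3 (2.00) were highest in that comparison, and Sod3 (-2.00), Hmox1 (-1.44) and Glrx (-1.27) lowest. The Prdx3 difference between 24 and 6 hours (0.49, adjusted p = 0.0175) ended without 6-hour replicate 3 or 24-hour replicate 5 (0.38 and 0.44, adjusted p 0.0538 and 0.0529). The Gstp1 difference between day 14 and 24 hours (0.31, adjusted p = 0.0161) ended without 24-hour replicate 1 (0.26, adjusted p = 0.0576).

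Of 99 other genes of the same pathways, 92 were measured. At 6 hours 20 had risen and 20 had fallen, at 24 hours 35 had risen and 11 had fallen, and on day 14, 21 had risen and 7 had fallen, with median changes of 0.05, 0.36 and 0.17. These were 21.7% risen and 21.7% fallen at 6 hours, beside 12.9% and 14.5% of all genes, 38% and 12% at 24 hours, beside 15.7% and 13.8%, and 22.8% and 7.61% on day 14, beside 9.47% and 13%. In either direction, 43.7%, 47.3% and 30.2% of the genes brighter than the median changed at the 3 times. Of the 92 genes, 52, 46 and 64 had no call, and how many of the 92 were brighter than the median was not counted. Among the regulators Maff, a small MAF protein, rose by 2.23 ± 0.177 at 6 hours (adjusted p = 3.07e-10), and Nfe2, the haematopoietic relative of NRF2, was 1.75 ± 0.285 higher on day 14 than at 24 hours (adjusted p = 1.88e-05). Ephx1, the epoxide hydrolase, rose by 2.47 ± 0.144 at 6 hours (adjusted p = 9.85e-13) and by 2.33 ± 0.144 at 24 hours (adjusted p = 2.36e-12). Akr1b8, an aldo-keto reductase, rose by 2.83 ± 0.485 at 24 hours (adjusted p = 4.96e-05) and by 1.70 ± 0.485 on day 14 (adjusted p = 0.0135); 1 of its non-irradiated arrays was at or under background. Slc40a1, the iron exporter ferroportin, fell by 1.76 ± 0.155 at 6 hours (adjusted p = 1.96e-09) and was 2.38 ± 0.155 higher at 24 hours than at 6 hours (adjusted p = 3.03e-11).

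In the wider glutathione and thioredoxin pathways, Mgst3, a microsomal transferase, fell by 3.87 ± 0.285 at 6 hours (adjusted p = 8.01e-11) and by 2.42 ± 0.285 at 24 hours (adjusted p = 2.19e-07). Gpx7, a peroxidase of the endoplasmic reticulum, rose by 2.39 ± 0.274 at 24 hours (adjusted p = 1.41e-07). Txnrd2, the mitochondrial thioredoxin reductase, fell by 1.25 ± 0.235 at 6 hours (adjusted p = 0.000182) and by 2.73 ± 0.235 at 24 hours (adjusted p = 9.86e-10). These genes too split between falls and rises at the same time. Nox4, an NADPH oxidase of vessel walls that makes hydrogen peroxide, was at or under background on all 5 non-irradiated arrays, so no fold is given for it. Of the genes that supply NADPH, Idh1 rose by 1.80 ± 0.191 at 24 hours (adjusted p = 3.94e-08), whereas Mthfd2, of mitochondrial folate metabolism, fell by 1.49 ± 0.208 at 6 hours (adjusted p = 3.52e-06) and rose by 1.40 ± 0.208 on day 14 (adjusted p = 2.53e-05). Sesn2, a sestrin induced by p53, rose by 1.88 ± 0.237 at 6 hours (adjusted p = 7.86e-07) and by 1.65 ± 0.237 at 24 hours (adjusted p = 4.51e-06), and Msrb3, a methionine sulfoxide reductase, by 1.84 ± 0.176 at 24 hours (adjusted p = 6.36e-09).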

How the data were processed

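Expression was measured in 20 samples, 5 in each of 4 groups, taken from the labels. The authors deposited 1 intensity per probe set and array, on a linear scale and brought to a trimmed mean of 500 per array (2% trimmed at each end), as read from the values. Per the labels' protocols, a Qiagen micro kit gave the RNA, and the NuGEN Ovation system amplified it. Affymetrix Expression Console and Affymetrix's Transcriptome Analysis Console are the tools in the submitters' processing notes, and how probes were summarized or corrected for background is not given in the sources used here. Precision is limited by the number of arrays.

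Intensities were log2 transformed after adding 1, and each gene was read from its brightest probe set with 1 symbol (34945 of 45101). The 4 groups were fitted in 1 model with limma 3.58.1 in R 4.3.3 (lmFit, eBayes with intensity trend), two-sided, with Benjamini-Hochberg adjustment over 18193 genes and no filter on dim genes. It was tested on simulated data. Background was the 95th percentile of 27 bacterial control probe sets on each array (17.5 to 51.5), a level chosen after seeing the data. All 33 genes are named; of the other pathway genes, those named were drawn from up to 2 called genes with the largest change per list and comparison. The genes and lists were chosen with earlier results of these data known. The alternatives tried are given under the closing observations. Replicate numbers did not pair the samples: of 30 same-numbered pairs, deviations from group means correlated between -0.0665 and 0.0493.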

Additional observations from a re-analysis of the deposited data

Results flagged for a closer look

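In 5 of 124 sets of 5 arrays (31 genes in 4 groups), 1 array lay apart from the other 4; about 1 in 20 such sets is marked by chance. Gsr on 24-hour replicate 3 was the lowest of its group at 7915, against 8466 for the next (gap over range 0.788). Slc7a11 on 24-hour replicate 1 was the lowest at 6.62, against 48.4 (0.846). Gpx4 on day 14 replicate 5 was the lowest at 2746, against 3782 (0.733). Sod2 on 24-hour replicate 3 was the highest at 3871, against 3278 (0.721). Txn2 on non-irradiated replicate 5 was the lowest at 700, against 1110 (0.777).

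In 6 genes the change against the non-irradiated arrays passed the test in opposite directions at different times, and the direct difference between those times passed as well. This count covers only the differences that were tested, 24 hours against 6 hours and day 14 against 24 hours. Gss (-1.03 and 0.70) and Gstp1 (-0.43 and 0.55) also passed in opposite directions at 6 hours and on day 14, and the difference between those 2 times was not tested. Gsta4 fell at 6 hours and rose at 24 hours, with a log2 difference of 2.16 between 24 and 6 hours. Blvrb, Gclm, Glrx5, Prdx3 and Nqo1 fell at 24 hours and rose on day 14, with log2 differences of 4.01, 1.96, 2.55, 2.00 and 1.67 between day 14 and 24 hours. The day 14 rise of Nqo1 is the weakest of these, with an adjusted p of 0.0498.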

How the results depend on the processing

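Over 30 alternatives, 4369 of 4645 changes of the 31 genes kept their direction and their side of the threshold, 104 lost the call, 96 gained one and 22 reversed; 54 others changed sign without a call. Centring arrays on their medians gave, at 6 hours, 7 of the 31 genes higher (3531 genes higher and 1617 lower of all genes); at 24 hours, 14 higher and 7 lower (4950 and 1139); on day 14, 29 higher and 0 lower (8210 and 461); 1 lower at 24 hours against 6 hours; and 3 lower on day 14 against 24 hours (4971 and 1687). Under centring the change on day 14 became 0.75 for Nfe2l1, 0.89 for Bach1, 0.37 for Mafg, 0.62 for Fth1, 0.61 for Gsr and 0.80 for Sod1, Gsr became 0.11 on day 14 against 24 hours, and Fth1 and Txn1 became 0.03 and 0.18 at 24 hours. Quantile normalization left 1 of the 31 lower on day 14 (1135 of all genes) and gave Fth1 0.09 and Txn1 0.01 at 24 hours, Fth1 0.15 and Sod1 0.16 on day 14, and 0.15 for both Fth1 and Sod1 at 24 against 6 hours. Averaging the probe sets of each gene left 2 higher at 6 hours, gave 5 lower on day 14 (3624 of all genes), and turned Nfe2l2 to -0.69 at 24 hours and -0.91 on day 14, Fth1 to 0.18 on day 14 and 0.14 at 24 against 6 hours, Txn1 to -0.26 at 24 against 6 hours and Sod1 to -0.24 on day 14 against 24 hours. Leaving out cross-hybridizing probe sets turned Sod1 to 0.04 at 24 against 6 hours. Leaving out dim genes gave 1521 genes lower on day 14 and 5 of the 31 lower at 24 against 6 hours, and dropping the intensity trend left 1 lower on day 14. Array weights left 2 higher at 6 hours and gave 2685 and 3557 genes higher and lower on day 14; fitting only the groups compared left 2 higher at 6 hours, 2909 genes higher on day 14 and 1635 higher at 24 against 6 hours. The cause was not tested.

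Leaving out each array in turn gave, of the 31 genes, 2 to 4 higher and 13 to 14 lower at 6 hours (2147 to 2378 and 2418 to 2763 of all genes), 8 to 10 and 10 to 12 at 24 hours (2598 to 3061 and 2194 to 2694), 12 to 17 and 2 to 3 on day 14 (1336 to 1936 and 1813 to 2562), 10 to 13 and 3 to 4 at 24 against 6 hours (2141 to 2587 and 1517 to 1890), 13 to 15 and 6 on day 14 against 24 hours (2576 to 2883 and 3523 to 4141), and 24 to 28 different among the 4 groups (9411 to 10278). The count of 2 at 6 hours came without 6-hour replicate 5 or non-irradiated replicate 1 or 5. The replicate number as a block did not pair the samples (8 of 30 best matches shared a number); with this replicate block, 4 rose and 14 fell at 6 hours, 8 and 11 at 24 hours, and 16 and 3 on day 14, while the day 14 rise of Nqo1 lost its call (adjusted p = 0.0684). Signals near background limit Slc7a11.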
